A study of Mus musculus with 8 samples.

Results

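The genes described here are 10 heat shock proteins and co-chaperones, chosen by name with earlier results of these data known. They are Hspb1, Hspa1a, Hspa1b, Hspa8, Hsp90aa1, Hsp90ab1, Dnajb1, Hsph1, Bag3 and Hspa5. Each matched 1 Ensembl identifier of the deposited count table, so that 10 of its 46078 genes are members, and all 10 were among the 16495 genes with enough counts to be tested. RNA was sequenced from sorted Lgr5-traced hair follicle stem cells of mice of the strain Lg5-egfp-ires-creert2/R26-tdTomato, in which Lgr5-expressing cells make a Cre recombinase that tamoxifen-type ligands activate and which switches on a red fluorescent protein. Every library came from mice with skin injury. In 4 libraries regulatory T cells were present (Treg-sufficient) and in 4 they had been removed (Treg-depleted). The labels number 2 experiments, each with 2 libraries of each condition: experiment 1 holds replicates 1 and 2 of both, experiment 2 replicates 3 and 4. What removed the cells, how and when the skin was injured and how old the mice were is not given in the sources used here, and tracing also marks progeny of Lgr5-expressing cells. Nothing in the labels says that replicates were separate animals, so p-values measure the spread between these libraries, which may in part be technical.

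Heat shock proteins are chaperones: they hold unfolded proteins, help them to fold, or pass them on for breakdown. The HSP70 proteins bind short stretches of unfolded chain and are driven by J-domain partners such as Dnajb1, while nucleotide exchange factors such as Hsph1 and Bag3 make them let go. The HSP90 proteins act later, on nearly folded clients such as kinases and steroid receptors. Some members are made all the time (Hspa8, Hsp90ab1) and others are induced through the transcription factor HSF1, which binds inverted repeats of GAA called heat shock elements. In the epidermis the small heat shock protein HSPB1 is known to accompany keratinocyte differentiation. Enzymatic isolation of cells from tissue is itself known to induce heat shock and immediate early genes.

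All members lie in GRCm38 at positions of the GENCODE M21 annotation. Hspb1 (ENSMUSG00000004951) spans chromosome 5, 135887919 to 135889563, on the plus strand. Hspa1a (ENSMUSG00000091971; chromosome 17, 34969190 to 34972156) and Hspa1b (ENSMUSG00000090877; chromosome 17, 34956436 to 34959238) are neighbouring genes on the minus strand, each of 1 exon. Their partner Dnajb1 (ENSMUSG00000005483) spans chromosome 8, 83608193 to 83612653, plus strand. Hsp90aa1 (ENSMUSG00000021270) spans chromosome 12, 110690605 to 110702728, and Hsp90ab1 (ENSMUSG00000023944) chromosome 17, 45567775 to 45573271, both on the minus strand. Hspa8 (ENSMUSG00000015656) spans chromosome 9, 40800984 to 40810087, and Hspa5 (ENSMUSG00000026864) chromosome 2, 34771970 to 34777547, both on the plus strand. Hsph1 (ENSMUSG00000029657) spans chromosome 5, 149614287 to 149636376, minus strand, and Bag3 (ENSMUSG00000030847) chromosome 7, 128523616 to 128546981, plus strand.

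Heat shock elements were looked for in the RefSeq promoter windows (GRCm38.p6, 250 bases before to 50 after each transcription start), which held 7 of the members. The motifs searched were the inverted repeats GAANNTTC and TTCNNGAA, the 3-unit repeat in which both overlap in the middle unit, and the endoplasmic reticulum stress element of the unfolded protein response, CCAAT and CCACG with any 9 bases between them. Each was searched on both strands. The stretches directly upstream of the start are shown for Hspb1, Hspa1a and Hspa1b, the members with the smallest unadjusted p-values between conditions, as 150 bases ending at the base before the start, written 5′ to 3′ on the strand of the gene, with the inverted repeats in capitals. They lie at chr5:135887769-135887918 (Hspb1, plus strand), chr17:34972157-34972306 (Hspa1a, minus strand) and chr17:34959239-34959388 (Hspa1b, minus strand).
Hspb1: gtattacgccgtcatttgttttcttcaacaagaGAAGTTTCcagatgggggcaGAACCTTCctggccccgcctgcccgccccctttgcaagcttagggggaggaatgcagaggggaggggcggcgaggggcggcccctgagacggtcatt
Hspa1a: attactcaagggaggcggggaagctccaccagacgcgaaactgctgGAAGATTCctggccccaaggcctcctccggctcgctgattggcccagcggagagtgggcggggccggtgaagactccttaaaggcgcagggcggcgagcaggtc
Hspa1b: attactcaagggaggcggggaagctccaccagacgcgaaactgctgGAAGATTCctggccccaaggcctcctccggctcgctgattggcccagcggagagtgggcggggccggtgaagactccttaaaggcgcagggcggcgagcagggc

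Hspb1 held 2 inverted repeats, GAAGTTTC from -117 to -110 and GAACCTTC from -97 to -90, counted from the base before the start as -1. Hspa1a and Hspa1b each held 1, GAAGATTC from -104 to -97. Their upstream stretches differ at 1 of 150 bases, T-2G with the base of Hspa1a given first. Hsph1 has 2 starts in the table. The window of its first start held TTCTCGAA from -54 to -47 and the 3-unit repeat TTCTGGAAAGTTC from 16 to 28 after the start. The window of the second start holds the same bases. Bag3 held GAAGTTTC from 43 to 50 after the start. Hspa5 held the unfolded protein response element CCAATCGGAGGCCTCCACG from -65 to -47 and no inverted repeat, and neither of the 2 Dnajb1 windows held any of the motifs. Of all 32851 windows in the table, 15.1% held at least 1 inverted repeat of either form, 0.603% the 3-unit repeat and 0.119% the unfolded protein response element. These matches are letters in a window and do not show that a factor binds there.

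**Figure D1:**
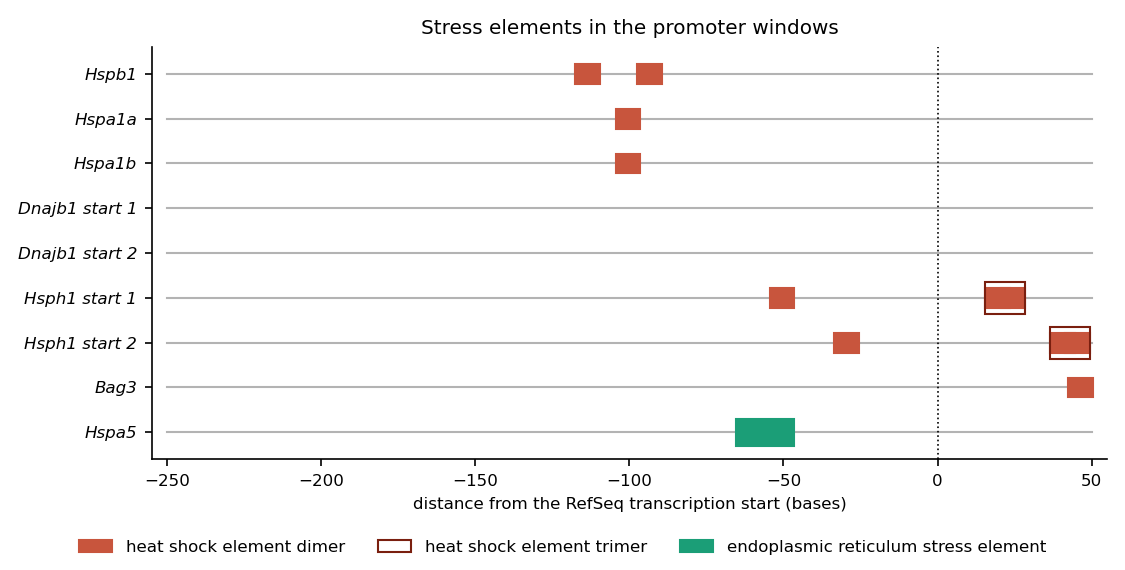
Positions of the searched motifs in the RefSeq promoter windows of the members, 1 line per transcription start. The horizontal axis is the distance from the start in bases, and marks stand for inverted GAA repeats (dimers), the 3-unit repeat (trimer) and the endoplasmic reticulum stress element. Hspb1 carries 2 repeats upstream of its start, Hspa1a and Hspa1b 1 each at the same distance, and both Dnajb1 lines are empty.

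Library totals ran from 22330729 to 29975347 gene counts. The lowest count of any member in any library was 952 (Hspa1a) and the highest 64416 (Hsp90ab1), so counting error is small beside the spread between libraries. The libraries were not alike in other ways. Xist, the RNA that coats the inactive X chromosome of female cells, stood at 2713 CPM (gene counts scaled to the depth of the library) in Treg-sufficient replicate 2, at 72.0 in Treg-depleted replicate 2 and at 0.968 to 2.26 in the other 6, so results were also computed without replicate 2 of both conditions. Treg-depleted replicate 2 had the fewest genes with counts, 18605. The markers of hair follicle stem cells summed to 4811 to 9485 CPM in Treg-sufficient and 4762 to 8790 in Treg-depleted libraries, and Lgr5 itself stood at 422 ± 57.5 and 444 ± 92.8 CPM (SD, n = 4). Most of that sum was Krt15, at a mean of 5727 CPM. Cd34, named after its value was seen, stood at 171 ± 105 against 348 ± 225 CPM (log2 fold change 1.06, adjusted p = 0.686 by edgeR). The log2 fold change was -0.26 for Lhx2, -0.057 for Krt15, 0.0032 for Sox9 and 0.067 for Lgr5. Immune markers summed to at most 6.09 CPM and endothelial markers to at most 7.74. Fibroblast markers (6 genes) summed to 37.0 to 104 CPM in Treg-sufficient and 18.9 to 70.0 in Treg-depleted libraries, and melanocyte markers (4 genes) to 63.2 to 358 and 55.9 to 187. The most abundant markers were Krt15, Lgr5 and Lhx2 for the stem cells, Krt5, Krt14 and Trp63 for keratinocytes, Dcn, Col1a2 and Col1a1 for fibroblasts, Dct, Mitf and Pmel for melanocytes, Pecam1, Cdh5 and Tie1 for endothelium and Cd68, S100a8 and Foxp3 for immune cells. None of the markers of these types was at 0 in all libraries. The part of these cells in the results was not tested, and in such bulk samples fewer cells of a type and less RNA per cell cannot be told apart.

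Levels were compared between genes as CPM per kilobase of exon, over all 8 libraries. Hsp90ab1, the constitutive cytosolic HSP90, had the highest level, 715 ± 64.5 CPM per kilobase (SD, n = 8). Hspa8, the constitutive HSP70, followed at 261 ± 43.7, and the highest Hspa8 library lay below the lowest of Hsp90ab1. The remaining order was Hspb1 at 217 ± 105, Hspa1b at 150 ± 59, the endoplasmic reticulum HSP70 Hspa5 at 122 ± 15.7, the inducible HSP90 Hsp90aa1 at 106 ± 23.3 and the J-domain gene Dnajb1 at 103 ± 45.7. Lowest were Hspa1a at 37.7 ± 18.6, Bag3 at 35.7 ± 4.50 and Hsph1 at 23.1 ± 6.56 CPM per kilobase. Each neighbouring pair in this order after Hsp90ab1 overlapped in range. Compared within each library, Dnajb1 lay above Hspa1a and Bag3 above Hsph1 in all 8. The other pairs changed order between libraries, so the order within them is not settled. Together the members took 0.428 to 0.559% of gene counts in Treg-sufficient and 0.566 to 0.624% in Treg-depleted libraries.

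Several members share sequence with other genes, and reads that align to several places (26.2 to 30.6% of reads listed) were not counted for any gene. Of all 50-base stretches in its transcripts, Hspa1a shares 66.3% with another gene, 58.8% with Hspa1b alone, and Hspa1b shares 62.3%. Hspb1 shares 50.1%, nearly all with the pseudogene Hsp25-ps1, Hsp90aa1 shares 47.5%, mostly with Gm12346, and Hspa8 39.4%, mostly with Gm15459. For Hsp90ab1 the share was 3.44%, for Dnajb1 0.41%, and for Hsph1, Bag3 and Hspa5 it was 0. Levels of the 5 members with high shares are therefore uncertain, and how reads were split between Hspa1a and Hspa1b cannot be checked from counts. Hspa1a also overlaps Gm20481 on the opposite strand over 564 exon bases. That gene had 0 counts.

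Between the conditions, most but not all stress-inducible members stood higher in Treg-depleted libraries, and the constitutive ones did not differ by more than their spread. This comparison asks what the absence of regulatory T cells goes with in these cells after injury. By edgeR's quasi-likelihood test with experiment as a term, the fold was 2.06 for Hspa1a, 1.89 for Hspa1b, 1.73 for Hspb1, 1.73 for Dnajb1, 1.36 for Hsp90aa1 and 1.29 for Hsph1. It was 1.07 for Hspa8 and 0.964 for Hsp90ab1. No member passed the threshold of 0.05 after Benjamini-Hochberg adjustment, and neither did any other gene (0 of 16495, 0%). Before adjustment 6 of the 10 members had p under 0.05 in the higher direction, against 3.5% of all genes tested (578), and 0 members did in the lower direction (597 genes, 3.62%). Of the members 9 of 10 had a positive log2 fold change, against 50.3% of all genes, and their median log2 fold change was 0.41 against 0.0019 over all genes tested. Members were chosen with earlier results of these data known, so these and later shares describe them and are not independent support.

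The inducible HSP70 genes had differences of like size. Hspa1a, which is kept low in many unstressed tissues, stood at 48.6, 32.5, 110 and 123 CPM in Treg-sufficient replicates 1 to 4 and at 138, 84.2, 170 and 189 in Treg-depleted replicates 1 to 4. The groups overlapped over all libraries, with experiment 2 higher in both conditions, and did not overlap within either experiment. The log2 fold change was 1.04 (SE 0.23, 95% interval 0.52 to 1.56, adjusted p = 0.686 by edgeR), at rank 19 of 16495 by p. Hspa1b, its near-identical neighbour, stood at 242, 176, 374 and 407 CPM against 654, 391, 519 and 601. Here too each experiment taken by itself separated the conditions, and the log2 fold change was 0.92 (SE 0.22, 95% interval 0.41 to 1.43, adjusted p = 0.686 by edgeR). Between experiments Hspa1a was 1.10 higher in experiment 2 on the log2 scale (SE 0.23, adjusted p = 0.0541 by edgeR) and Hspa1b 0.50 (SE 0.22, adjusted p = 0.232), while 268 genes (1.62%) and no member were called. Some genes of the other lists were called. The melanocyte markers Dct (2.48, adjusted p = 0.0439 by edgeR) and Pmel (2.52, adjusted p = 0.0439) were higher in experiment 2. So were Tyrp1 (2.64, adjusted p = 0.0483 by edgeR) and, of the immediate early genes, Egr3 (1.28, adjusted p = 0.0483). The other melanocyte marker, Mitf, was lower in experiment 2 (-0.52, adjusted p = 0.293 by edgeR). Of the 19 immediate early genes, 8 were higher and 11 lower in experiment 2, with a median of -0.10. The part of these genes in the level of Hspa1a was not tested.

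Hspb1, the small heat shock protein that holds unfolded proteins without using ATP, separated the conditions over all 8 libraries. It stood at 164, 161, 142 and 159 CPM in the Treg-sufficient and at 427, 365, 189 and 180 CPM in the Treg-depleted libraries. The 2 Treg-depleted libraries of experiment 1 lay far above the other 6, and those of experiment 2 were only just above the controls. The log2 fold change was 0.79 (SE 0.20, 95% interval 0.35 to 1.24, adjusted p = 0.686 by edgeR). Its spread within the Treg-sufficient group was small, 156 ± 9.78 CPM (SD, n = 4), against 290.3 ± 125 in the Treg-depleted group.

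Dnajb1, the J-domain partner that feeds clients to HSP70, stood at 249, 155, 259 and 306 CPM in Treg-sufficient and at 655, 313, 344 and 358 CPM in Treg-depleted libraries. The groups did not overlap, although the gap between the highest control and the lowest Treg-depleted library was small and replicate 1 of the Treg-depleted group stood apart. The log2 fold change was 0.79 (SE 0.29, adjusted p = 0.686 by edgeR), and 0.43 without that library. Hsp90aa1, the inducible HSP90, stood at 363, 252, 426 and 376 CPM against 564, 433, 426 and 486. The highest control and the lowest Treg-depleted library were level to within 1 CPM, and the log2 fold change was 0.44 (SE 0.17, adjusted p = 0.692 by edgeR). With Hspb1, these 2 genes made 3 of 10 members whose conditions did not overlap in the higher direction, against 1.27% of all genes tested (210).

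The constitutive chaperones had high and level values. Hspa8, which folds new proteins and uncoats clathrin vesicles, stood at 1208, 850, 1238 and 1048 CPM in Treg-sufficient and 1030, 1442, 955 and 1207 in Treg-depleted libraries. Both replicate 2 libraries lay at the edges of this range, on opposite sides. Its log2 fold change was 0.092 with a 95% interval from -0.31 to 0.49, and it was negative, -0.15, without replicate 2 of both conditions. Hsp90ab1 stood at 2211, 1969, 2420 and 2133 CPM against 1895, 2368, 1956 and 2195, fully overlapping, with a log2 fold change of -0.053 and an interval from -0.34 to 0.24. For these 2 genes the intervals leave out a doubling.

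**Figure D2:**
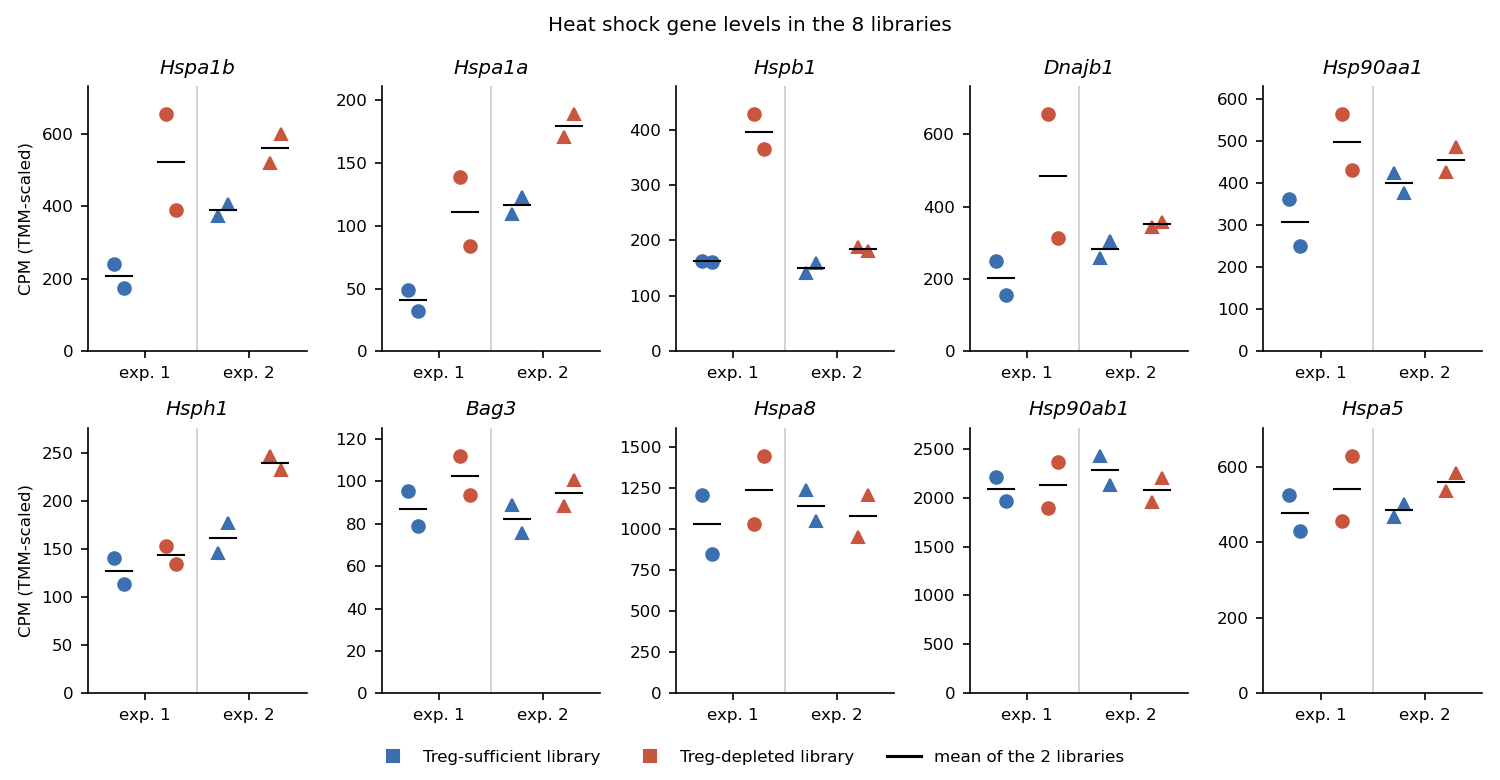
Level of each member in the 8 libraries, in CPM on TMM-scaled library sizes with axes from 0. Circles are libraries of experiment 1 (exp. 1) and triangles of experiment 2 (exp. 2), blue is Treg-sufficient, red is Treg-depleted, and the black line is the mean of 2 libraries. In the upper row every red point lies above the blue points of its experiment, and the red Hspb1 points lie at 427 and 365 CPM in experiment 1 and at 189 and 180 CPM in experiment 2.

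The ratio of inducible to constitutive forms was computed within each library from CPM per kilobase, which needs no scaling between libraries. Hspa1a and Hspa1b together stood at 0.365, 0.374, 0.591 and 0.766 of Hspa8 in Treg-sufficient replicates 1 to 4 and at 1.17, 0.501, 1.09 and 0.991 in the Treg-depleted ones. Only Treg-depleted replicate 2 fell among the controls, and within each experiment the conditions did not overlap. Hsp90aa1 stood at 0.125, 0.0976, 0.134 and 0.135 of Hsp90ab1 in Treg-sufficient and at 0.227, 0.139, 0.166 and 0.169 in Treg-depleted libraries. All 4 Treg-depleted libraries exceeded all 4 controls. The ratio of Hspa1b to Hspa1a, which was looked at after the values were seen, stood at 5.26, 5.74, 3.61 and 3.49 in Treg-sufficient replicates 1 to 4 and at 4.995, 4.92, 3.22 and 3.37 in the Treg-depleted ones. All libraries of experiment 1 exceeded those of experiment 2, and within each experiment both Treg-depleted libraries lay below both controls. These ratios are descriptions with no test, and the part of the shared sequence in them was not tested.

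**Figure D3:**
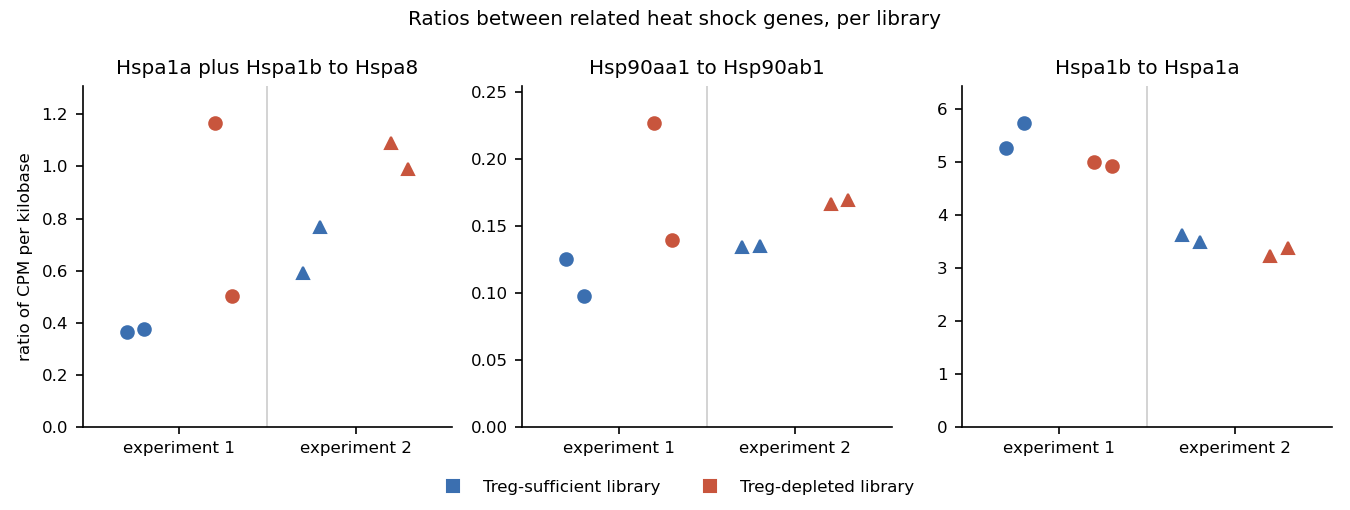
Ratios between related members in each library, computed from CPM per kilobase, with axes from 0. Circles are experiment 1 and triangles experiment 2, blue is Treg-sufficient and red Treg-depleted. For Hsp90aa1 to Hsp90ab1 the red points, 0.139 to 0.227, lie above all blue points, 0.0976 to 0.135, while Hspa1b to Hspa1a is higher in experiment 1 (4.92 to 5.74) than in experiment 2 (3.22 to 3.61), with the red points below the blue points of each experiment.

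The exchange factors and the endoplasmic reticulum member had smaller differences. Hsph1, the HSP110 that exchanges nucleotide on HSP70, stood at 141, 114, 146 and 177 CPM in Treg-sufficient and 154, 134, 246 and 233 in Treg-depleted libraries. In experiment 2 both Treg-depleted libraries lay above both controls, while the values of experiment 1 overlapped. Its log2 fold change was 0.37 (SE 0.13, adjusted p = 0.686 by edgeR). Bag3, which links HSP70 to autophagy and is a known HSF1 target, stood at 95.2, 78.9, 88.6 and 75.7 CPM against 112, 93.6, 88.5 and 100.4. The groups overlapped, and its log2 fold change was 0.22 with a 95% interval from -0.029 to 0.47. Hspa5, also called BiP, the HSP70 of the endoplasmic reticulum and the standard readout of the unfolded protein response, stood at 524, 428, 468 and 500 CPM against 456, 627, 536 and 582. Its log2 fold change was 0.20, with an interval from -0.095 to 0.49.

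Effects within an experiment compare its own 4 libraries, while the spread behind their p-values comes from all 8 libraries in 1 model. Within experiment 1 Hspb1 rose 2.44-fold in Treg-depleted libraries, from 162 ± 2.02 to 396 ± 44.1 CPM (SD, n = 2). It was the only member called by edgeR (log2 fold change 1.29, SE 0.14, adjusted p = 0.0167 by edgeR), where 0.224% of all genes tested (37) were called higher and 0.382% (63) lower. The call was lost without Treg-sufficient replicate 1, without Treg-sufficient replicate 2, without Treg-depleted replicate 3 and without Treg-depleted replicate 4. Every fit with 1 library left out leaves a lone library in 1 group, also those that kept the call. Why the call was lost in these fits and not in the others was not tested. The log2 fold change itself stayed between 1.15 and 1.36 over 14 alternatives, and 10 of them kept the call. Hspa1a (1.46, SE 0.27, adjusted p = 0.066 by edgeR), Hspa1b (1.32, SE 0.26, adjusted p = 0.0768) and Dnajb1 (1.26, SE 0.35, adjusted p = 0.19) had changes of similar size that missed the threshold. Hsp90aa1 followed at 0.70 (SE 0.22, adjusted p = 0.254 by edgeR). DESeq2 called 4 members in experiment 1, Hspb1 (adjusted p = 6.16e-13), Hspa1a (adjusted p = 3.88e-05), Hspa1b (adjusted p = 0.000112) and Dnajb1 (adjusted p = 0.00934), and with no low-count filter edgeR called the same 4 and Hsp90aa1 (adjusted p = 0.0182). Both settings also called many more of all genes in experiment 1 than the main fit did, and their counts are given with the dependence on processing below.

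Leaving out libraries shifted the inducible HSP70 genes and Dnajb1 in experiment 1 as well. Without Treg-depleted replicate 2, the log2 fold change was 1.74 for Hspa1a, 1.61 for Hspa1b and 1.66 for Dnajb1. With any 1 library left out, it ranged from 1.03 to 1.78, from 0.88 to 1.61 and from 0.60 to 1.66, in that order. Calls shifted too, for these genes and for many others, as given with the dependence on processing below. The remaining members had log2 fold changes from 0.028 (Hsp90ab1) to 0.26 (Hspa8) in experiment 1. All 10 were above 0, against 52% of all genes, although that of Hsp90ab1 turned to -0.0096 with upper-quartile scaling those of Hspa8 and Hspa5 to -0.27 and -0.24 without replicate 2 of both conditions, and that of Hsph1 to -0.011 without Treg-sufficient replicate 2. At an unadjusted p under 0.05, 5 members were higher, against 4.59% of all genes (757). The same number, Hspb1, Hspa1a, Hspa1b, Hsp90aa1 and Dnajb1, had both Treg-depleted libraries above both controls, against 18.6% of all genes.

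Within experiment 2 no gene passed the adjusted threshold (0 of 16495, 0%, by edgeR and 1 by DESeq2), and 2 members, Hsph1 and Hspa1a, were higher at an unadjusted p under 0.05, against 0.849% of all genes (140). Of the members 8 of 10 had a positive log2 fold change, against 50.2% of all genes. Hsph1 stood at 162 ± 22.1 CPM in Treg-sufficient and 239.5 ± 9.70 in Treg-depleted libraries (SD, n = 2), or 0.57 on the log2 scale (SE 0.17, adjusted p = 1 by edgeR). Hspa1a went from 116 ± 9.77 to 180 ± 12.96 CPM, or 0.62 on the log2 scale (SE 0.26, adjusted p = 1 by edgeR). Hspa1b had a log2 fold change of 0.52, Dnajb1 of 0.31, Hspb1 of 0.29 and Hsp90aa1 of 0.19, each below its value in experiment 1. In 7 of 10 members both Treg-depleted libraries exceeded both controls, against 16.7% of all genes. Hspb1, Hspa1a, Hspa1b, Hsp90aa1 and Dnajb1 did so in each experiment taken by itself, 5 of 10 members against 3.79% of all genes (625), and 0 members were lower in both (533 genes, 3.23%). These 5 genes went together across the same 8 libraries once each experiment's mean was removed. Pearson's r ran from 0.842 (Hspb1 and Hsp90aa1) to 0.997 (Hspa1a and Hspa1b), so they are not 5 separate observations.

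**Figure D4:**
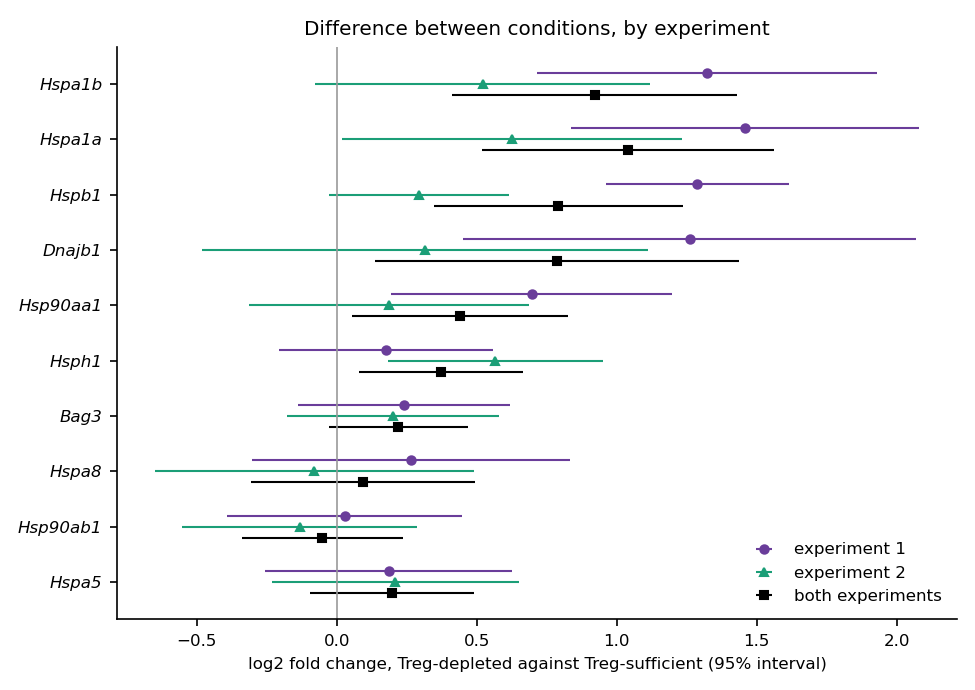
Log2 fold change of each member, Treg-depleted against Treg-sufficient, over both experiments and within each, with 95% intervals from edgeR. Hspa1b, Hspa1a, Hspb1, Dnajb1 and Hsp90aa1 lie to the right of 0 in both experiments, farther in experiment 1, while Hsph1 lies farther in experiment 2, and Hspa8 and Hsp90ab1 have intervals across 0 throughout.

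The difference between the experiments was tested as an interaction. For Hspb1 the effect in experiment 2 was lower than in experiment 1 by a log2 value of -0.99 (SE 0.20, 95% interval -1.45 to -0.54, adjusted p = 0.299 by edgeR). For Dnajb1 it was -0.95 (SE 0.49, adjusted p = 0.941 by edgeR), for Hspa1a -0.83 (SE 0.37, adjusted p = 0.905) and for Hspa1b -0.80 (SE 0.37, adjusted p = 0.905). Hsph1 had the opposite sign, 0.39 (SE 0.23, adjusted p = 0.96 by edgeR). No gene passed the adjusted threshold by edgeR (0%), 923 did at an unadjusted p under 0.05 (5.6%), and DESeq2 called 182. DESeq2 gave Hspb1 an adjusted p of 0.00257 for this difference, so whether the Hspb1 effect differed between experiments depends on the tool. Without the filter on low counts edgeR also called it for Hspb1 (adjusted p = 0.0255) and Dnajb1 (adjusted p = 0.046). For Hspb1 these were the only 2 of 14 alternatives that called it, and limma-voom did not.

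The tool also decided the calls between conditions over both experiments. DESeq2's Wald test called 82 genes, among them Hspa1a (adjusted p = 0.0115), Hspa1b (adjusted p = 0.0283) and Hspb1 (adjusted p = 0.0397). The sizes of these changes hardly moved, with log2 fold changes of 1.03, 0.91 and 0.78. Each of these members was called in 2 of 16 alternatives, DESeq2 and edgeR without the filter, and not by limma-voom.

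Genes of the immediate early response, which handling and dissociation of tissue are also known to induce, were higher in the same libraries. The 19 genes of this list summed to 3173, 1176, 3333 and 4260 CPM in Treg-sufficient replicates 1 to 4 and to 11830, 8385, 6621 and 4903 in Treg-depleted replicates 1 to 4. The groups did not overlap, and the excess was larger in experiment 1. Of these genes 18 of 19 had a positive log2 fold change between conditions, against 50.3% of all genes, with a median of 1.19. In the higher direction 17 had an unadjusted p under 0.05, against 3.5% of all genes. After adjustment edgeR called 0 and DESeq2 6. The most abundant were Fos (611 ± 347 against 1626 ± 487 CPM, log2 fold change 1.49), Egr1 (355 ± 190.5 against 997 ± 319, 1.56) and Btg2 (207 ± 94.9 against 784 ± 587, 1.72). In experiment 1 the list's median was 1.97 and 6 of 19 were called higher by edgeR, against 0.224% of all genes. They were Egr1 (2.54, adjusted p = 0.0167), Jun (1.73, adjusted p = 0.0416), Klf6 (1.97, adjusted p = 0.0397), Dusp1 (2.46, adjusted p = 0.0482), Ier2 (1.79, adjusted p = 0.0144) and Jund (1.34, adjusted p = 0.0237). DESeq2 called 17 of 19 higher there, where it also called many more of all genes than edgeR did. In experiment 2 the median was 0.47 and 0 were called by either tool. The part of this stress programme in the heat shock genes' difference was not tested.

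The rest of the chaperone system was described from 8 lists of 91 genes, 86 of them tested, and edgeR called 0 in either direction between conditions or within an experiment. At an unadjusted p under 0.05, 3 were higher between conditions (3.49% against 3.5% of all genes), 5 in experiment 1 (5.81% against 4.59%) and 1 in experiment 2 (1.16% against 0.849%), shares near those of all genes. In the lower direction there were 0 in each, against 3.62%, 6.47% and 0.897% of all genes. DESeq2 called Ppp1r15a higher between conditions and Ppp1r15a and Atf4 in experiment 1. Of the heat shock factors and their regulators 0 of 4 were positive between conditions, with Hsf1, the factor that drives the inducible members, at 66.5 ± 6.47 against 64.2 ± 5.07 CPM (SD, n = 4; log2 fold change -0.051), its inhibitor Hsbp1 at 104 ± 12.8 against 99.7 ± 9.82 and Hsf2 at 29.2 ± 1.14 against 29.3 ± 8.15. HSF1 is controlled mainly at the protein level, which these data do not measure. The other small heat shock proteins had 2 of 4 tested members on the positive side and a median of -0.0029. Hspb8, the partner of Bag3, stood at 121 ± 15.6 against 142 ± 29.7 CPM (log2 fold change 0.22), Cryab at 12.9 ± 2.93 against 16.8 ± 7.20 (0.35) and Hspb6 at 9.21 ± 2.80 against 6.85 ± 1.91 (-0.44).

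The other HSP70 and HSP110 genes had 7 of 9 positive and a median of 0.091. Mitochondrial Hspa9 stood at 352 ± 53.5 against 368 ± 106 CPM, Hspa4 at 331 ± 32.3 against 304 ± 56.1, and Hyou1, the HSP110 of the endoplasmic reticulum, at 117 ± 11.6 against 124 ± 17.4. The other HSP90 genes and HSP90 co-chaperones had 6 of 13 positive and a median of -0.042. Among them Hsp90b1, the HSP90 of the endoplasmic reticulum, stood at 426 ± 54.7 against 438 ± 85.5 CPM, Fkbp4 at 337 ± 59.4 against 304 ± 42.5 and Ptges3 (p23) at 208 ± 39.0 against 186 ± 45.5. The chaperonin list holds the cytosolic chaperonin, which folds actin and tubulin, and mitochondrial Hspd1 and Hspe1. It had 1 of 10 positive, Hspe1 (0.051), and a median of -0.097. Cct2 stood at 448 ± 66.2 against 417 ± 62.7, Cct5 at 399 ± 53.9 against 371 ± 65.7 and Cct6a at 352 ± 40.4 against 337 ± 86.9 CPM.

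Of the other DNAJ co-chaperones 13 of 17 were positive with a median of 0.035. The abundant Dnaja1 (199 ± 41.9 against 205 ± 48.6 CPM), Dnaja2 (198 ± 18.3 against 201 ± 39.9) and Dnajc7 (160.5 ± 12.7 against 149 ± 17.2) overlapped between conditions. The list's 2 genes with an unadjusted p under 0.05, named after their values were seen, were Dnajb4 (34.4 ± 3.95 against 46.1 ± 5.32 CPM, log2 fold change 0.42, adjusted p = 0.686 by edgeR) and Dnaja4 (49.5 ± 12.9 against 78.3 ± 22.4 CPM, 0.65, adjusted p = 0.686 by edgeR). Factors that exchange nucleotide on HSP70 or hand clients over had 4 of 9 positive and a median of -0.0089. Bag6 stood at 225 ± 19.8 against 209 ± 16.8 CPM, St13 at 181 ± 15.9 against 169 ± 31.3 and Bag1 at 124 ± 13.8 against 140 ± 44.8.

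Endoplasmic reticulum chaperones and unfolded protein response genes had 20 of 25 positive with a median of 0.089. The calcium-binding lectin chaperones Calr (624 ± 47.4 against 747 ± 152 CPM) and Canx (429 ± 24.6 against 472 ± 65.2) and their partner Pdia3 (653 ± 52.0 against 693 ± 113) had log2 fold changes of 0.26, 0.14 and 0.089. The list's only gene with an unadjusted p under 0.05 was Ppp1r15a, also named after its value was seen. It encodes a phosphatase subunit that restores translation after stress and also responds to immediate early stimuli, and it stood at 56.8 ± 29.7 against 110 ± 22.3 CPM (log2 fold change 1.08, adjusted p = 0.686 by edgeR). Some genes stand in 2 of the lists.

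**Figure D5:**
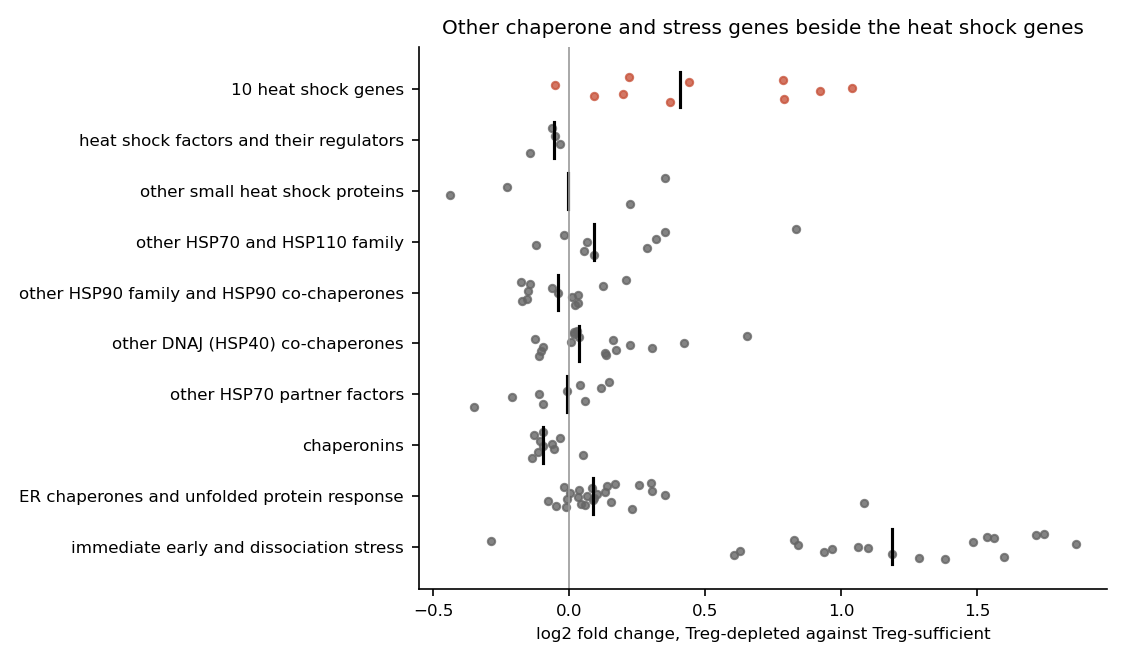
Log2 fold changes between conditions for the genes tested in each list, 1 point per gene, with a line at each list's median. The heat shock members (median 0.41) and the immediate early genes (median 1.19) lie to the right, and the medians of the other chaperone lists lie between -0.097 and 0.091.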

How the data were processed

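The authors deposited raw read counts per gene for all 8 libraries in 1 table, with no normalization. Per the labels' protocols, cells were sorted and flash frozen and the library kit was TruSeq Stranded mRNA. Per the submitters' processing notes, the build was GRCm38.p4 and the tools were HTSeq, SAMtools, DESeq2 and TopHat2 (version 2). How strand was treated, and which annotation was counted, is not given in the sources used here. Tallies of reads in no gene (6.63 to 10.8% of reads listed), in several genes (2.72 to 3.01%) or at several places stayed out of library sizes. GENCODE M21 named 45229 of the 46078 identifiers.

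Tests used edgeR 4.0.16 under R 4.3.3 (TMM factors, filterByExpr with minimum count 10, quasi-likelihood F-test, Benjamini-Hochberg adjustment over 16495 genes, threshold 0.05). The main model had condition and experiment as terms (5 residual degrees of freedom). A model with 4 groups (4 residual degrees of freedom) gave effects within experiments and their interaction, with SE as the absolute log2 fold change over the square root of F. Levels are CPM on TMM-scaled sizes; Xist and marker sums are unscaled. Counts per kilobase use the union of exons. The steps were tested on simulated data.

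Members and lists were chosen with earlier results of these data known. Named are all members, the 3 most abundant genes of each list, every list gene past the adjusted threshold in a comparison described, and the 5 genes most like the members in pattern. Alternatives were DESeq2 size factors, upper-quartile factors, no filter on low counts, DESeq2 1.42.0, limma-voom (limma 3.58.1), no experiment term, a replicate block and left-out libraries. The letters A to D in the titles were not taken as pairs: deviations from condition means correlated at 0.179, 0.13, 0.094 and 0.314, of which 1 was not over 0.1, and deviations from condition and experiment means at -0.095 and -0.118. Hspa14 and 4 small heat shock genes with too few counts were not tested. Promoter sequences are from RefSeq, GRCm38.p6.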

Additional observations from a re-analysis of the deposited data

Results flagged for a closer look

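Dnajb1 stood at 655.3 CPM in Treg-depleted replicate 1, against 313 to 358 CPM in the other 3 Treg-depleted libraries. Its gap to the nearest library was 0.866 of the group's range, above Dixon's 95% critical value for 4 libraries. It was 1 of 20 combinations of member and condition examined, and chance alone marks about 1 in 20. The same library had the highest sum of immediate early genes, 11830 CPM. Without it the log2 fold change of Dnajb1 was 0.43 between conditions and 0.60 in experiment 1, against 0.79 and 1.26 with it.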

How the results depend on the processing

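Of 580 values of members under the alternatives, 523 kept their direction and their side of the threshold, 23 passed it newly, 4 lost it and 30 changed sign. The counts of genes called moved far more. Between conditions they were 0 by edgeR, 820 without the filter on low counts and 82 by DESeq2. In experiment 1 they were 100, 1152 and 721, and 487 without replicate 2 of both conditions. Leaving out 1 library gave 0 (without Treg-depleted replicate 3) to 442 (without Treg-depleted replicate 2). In experiment 2 they were 0, 132 and 1. For the interaction they were 0, 534 and 182, with 89 without replicate 2 of both conditions and 0 to 9 without 1 library, the 9 without Treg-sufficient replicate 1. Without the filter Hspa1a, Hspa1b, Hspb1 and Dnajb1 were called between conditions (adjusted p = 1.79e-11, 1.73e-08, 2.57e-06 and 3.38e-06); the cause was not tested. A replicate block on the title letters called 0 genes, as without it, and changed no member's call; of the 4 letters, 2 correlated best with their own.

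The changes of sign concerned Hspa8, Hsp90ab1, Hspa5, Hsph1 and Bag3, none of them called in any of these comparisons. Hspa8 between conditions ranged from -0.063 to 0.19 with 1 library left out and was -0.15 without replicate 2 of both conditions. In experiment 1 Hsp90ab1 was -0.0096 with upper-quartile factors, -0.0069 without the filter, -0.27 without replicate 2 of both conditions and -0.18 to 0.16 with 1 library left out. There Hspa5 was -0.24 and -0.097 to 0.37, Hspa8 -0.27 and -0.035 to 0.54, and Hsph1 -0.011 to 0.34 with 1 left out. In experiment 2 Hspa8 ranged from -0.26 to 0.079. The interaction of Bag3 was 0.014 with upper-quartile factors, 0.0074 without the filter, 0.013 without replicate 2 of both conditions and -0.18 to 0.13 with 1 left out. That of Hsp90ab1 was 0.13 and -0.29 to 0.041, that of Hspa8 0.19, and that of Hspa5 -0.16 to 0.30. The cause was not tested. With 2 libraries per group and experiment, and 1 where a library is left out, a lone library is assumed to vary like the others.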

Other observations

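The 5 tested genes outside the lists whose levels went most closely with the members, by Pearson's r over 8 libraries after removing each experiment's mean, were Slc9b2 (r = 0.975), Dph5 (0.969), 1110046J04Rik (0.956), B3gnt2 (0.954) and Gm7389 (0.951). They were picked as the highest of all genes, so the values of r are a description. Dph5, an enzyme of diphthamide synthesis on translation elongation factor 2, was the most abundant at a mean of 18.8 CPM, and the others lay between 1.26 and 5.59 CPM.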
